A study of Mus musculus with 11 samples.

Results

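The transcripts of 8 liver nuclear receptors were followed in mouse livers in which the transcriptional coactivator YAP was switched on for 3 or 7 days. The genes were taken by symbol from a table of 20893 genes: Nr1i2 (PXR), Nr1i3 (CAR), Ppara (PPARα), Rxra (RXRα), Nr5a2 (LRH-1), Esr1 (ERα), Thrb (TRβ) and Rora (RORα). All 8 were found and all 8 passed the filter on low values. All mice were C57BL/6, carried the ROSA26-rtTA-IRES-EGFP allele and were fed doxycycline. The 4 control livers came from mice labeled WT at the second locus, after 7 days of doxycycline. The 4 livers at 3 days and the 3 livers at 7 days came from mice that also carried tetYAP, a doxycycline-driven transgene for YAP S127A, which lacks an inhibitory phosphorylation site. An albumin promoter drove the Cre that turns on rtTA in this cross, which points the transgene to hepatocytes. Whether the control mice carried that Cre, and the age of the mice, are not given in the sources used here. No control had 3 days of doxycycline, so any comparison with the 3-day livers also differs in days of doxycycline.

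Nuclear receptors are transcription factors that bind lipids, hormones, bile acids or drugs and regulate genes directly. PXR, CAR, PPARα and TRβ bind DNA as heterodimers with RXRα, whereas LRH-1 and RORα bind as monomers and ERα as a homodimer. In the liver PXR and CAR control drug metabolism, PPARα controls fatty acid oxidation, LRH-1 controls bile acid and cholesterol genes, and TRβ mediates the response to thyroid hormone.

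RNA of whole homogenized livers was sequenced, 1 library per liver, and each gene was deposited as eRPKM, the reads on its exons per kilobase scaled to the library. The libraries held from 1251396 (control liver 4) to 5941357 (7-day liver 2) reads on genes, and all 3 libraries at 7 days were among the 4 deepest. By Xist and Ddx3y reads, control livers 2 and 3, 3-day livers 3 and 4 and all 3 livers at 7 days were female and the other 4 were male, so sex and 7 days of induction were not balanced. Cyr61, a direct YAP target, averaged 9.43 eRPKM in controls, 39.0 at 3 days and 91.0 at 7 days, with no overlap between groups. The Yap1 row averaged 18.2, 16.8 and 18.4 eRPKM, and whether transgene reads are counted there is not stated. The most abundant hepatocyte transcripts did not scale with depth: Alb had 2417 to 3102 reads in every liver, although depth differed 4.75-fold. The receptors had no ceiling of that size. Control liver 2 had 3.67 (Rxra) to 17 (Esr1) times the reads of control liver 4, at 4.39 times its depth. The ratios of Rxra and Ppara (3.84) lay below that of depth, and those of Esr1 and Rora (9.52) well above it. Rxra was at 102 eRPKM in control liver 2 and 123 in control liver 4, and Ppara at 112 and 129. As control liver 2 was female and control liver 4 male, sex and depth cannot be told apart in these ratios. The part of these departures from depth in the fold changes was not tested. Each library is labeled a replicate of its group and no label names the animal, so p-values measure the spread between these libraries.

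The sequences just upstream of the transcription starts are shown first, because 3 of these genes fell after 7 days (Ppara, Nr1i3 and Nr5a2) and Nr1i2, which was not called in any comparison, serves as a contrast. Each run is the 250 bases before a RefSeq start, written 5′ to 3′ on the strand of the gene (build GRCm38.p6). Capitals mark matches, on either strand, to 3 motifs: the TEAD element GGAATG, through which YAP is brought to DNA, the nuclear receptor core element AGGTCA, and the HNF4 element AAGTCCA.
Nr1i3, chr1:171213720-171213969, plus strand: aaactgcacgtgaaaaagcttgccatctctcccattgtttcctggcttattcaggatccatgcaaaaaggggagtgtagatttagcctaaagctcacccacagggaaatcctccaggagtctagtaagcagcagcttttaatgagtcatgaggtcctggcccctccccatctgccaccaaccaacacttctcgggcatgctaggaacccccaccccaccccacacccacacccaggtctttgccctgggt
Ppara, chr15:85735526-85735775, plus strand: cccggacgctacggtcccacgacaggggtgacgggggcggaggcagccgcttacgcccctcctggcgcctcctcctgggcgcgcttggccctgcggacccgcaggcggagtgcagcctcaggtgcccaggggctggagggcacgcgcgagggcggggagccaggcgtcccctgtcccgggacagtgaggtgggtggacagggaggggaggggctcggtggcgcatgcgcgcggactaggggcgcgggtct
Nr5a2, first start, chr1:136953631-136953880, minus strand: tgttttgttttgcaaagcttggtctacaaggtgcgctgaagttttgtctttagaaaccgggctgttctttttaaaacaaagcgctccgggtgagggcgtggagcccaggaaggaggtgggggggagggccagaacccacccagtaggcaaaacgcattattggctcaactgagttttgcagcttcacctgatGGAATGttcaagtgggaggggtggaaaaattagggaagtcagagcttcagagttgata
Nr5a2, second start, chr1:136960449-136960698, minus strand: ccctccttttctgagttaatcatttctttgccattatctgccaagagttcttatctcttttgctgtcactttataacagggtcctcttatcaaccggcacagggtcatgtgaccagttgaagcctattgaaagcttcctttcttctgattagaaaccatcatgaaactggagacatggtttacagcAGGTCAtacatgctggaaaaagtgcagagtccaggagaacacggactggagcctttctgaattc
Nr1i2, chr16:38294825-38295074, minus strand: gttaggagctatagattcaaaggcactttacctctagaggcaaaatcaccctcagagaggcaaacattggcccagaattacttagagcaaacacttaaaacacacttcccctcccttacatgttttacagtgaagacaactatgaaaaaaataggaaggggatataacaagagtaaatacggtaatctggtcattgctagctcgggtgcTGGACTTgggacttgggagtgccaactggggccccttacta

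The windows of Nr1i3 and Ppara held none of the 3 motifs. The first Nr5a2 start had a TEAD element from position -58 to -53 relative to the start, and the second had a receptor element from -64 to -59. The Nr1i2 window had an HNF4 element from -41 to -35. Over all 12 windows of the 8 receptors, 3 held a TEAD element, 3 a receptor element and 1 an HNF4 element. Among 32851 promoter windows of the same length, 12.6% held a TEAD element, 14.0% a receptor element and 3.36% an HNF4 element. The TEAD elements outside Nr5a2 lay upstream of a start of Esr1 and of a start of Thrb. GC content ranged from 43.2% at the second Nr5a2 start to 81.2% at a start of Rxra, with 76.4% at Ppara and 53.2% at Nr1i3.

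On mm9, the build of the deposited values, Ppara lies at chr15:85565413-85633249 and Nr1i3 at chr1:173144101-173150832, both on the plus strand, and Nr5a2 at chr1:138740161-138857004 on the minus strand. Rxra lies at chr2:27531960-27618477 and Nr1i2 at chr16:38248409-38294910. Thrb lies at chr14:18493474-18870602, Rora at chr9:68501593-69236053 and Esr1 at chr10:5340927-5734948. By the GENCODE M1 annotation, 2268 of the 4414 exonic bases of Nr1i3 overlap Tomm40l, a gene on the opposite strand that encodes a mitochondrial outer membrane protein. Reads were counted without strand, so reads of both genes cannot be told apart in that stretch.

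In control livers the mean levels of the 8 receptors ran from 15.7 to 122 eRPKM. Ppara averaged 122 ± 7.79 eRPKM (SD, n = 4) and Rxra 112 ± 9.04. Ppara exceeded Rxra in each of the 4 livers, by a small margin and with overlapping ranges. Nr1i3 at 56.8 ± 18.9 and Nr1i2 at 55.4 ± 9.65 eRPKM came next and did not differ beyond their spread, since Nr1i3 was the higher in 2 of 4 livers. Nr5a2 (39.2 ± 6.30) and Thrb (27.2 ± 5.07) followed, in that order within every control liver. Rora (17.9 ± 6.43) and Esr1 (15.7 ± 7.71) were lowest, and each was the higher in 2 of 4 livers. The order changed with induction. At 7 days Rxra led, Nr1i2 and Ppara followed, and Nr1i3 had moved from rank 3 to rank 6, with Nr1i2 and Ppara overlapping and Nr1i3 and Rora overlapping.

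**Figure D1:**
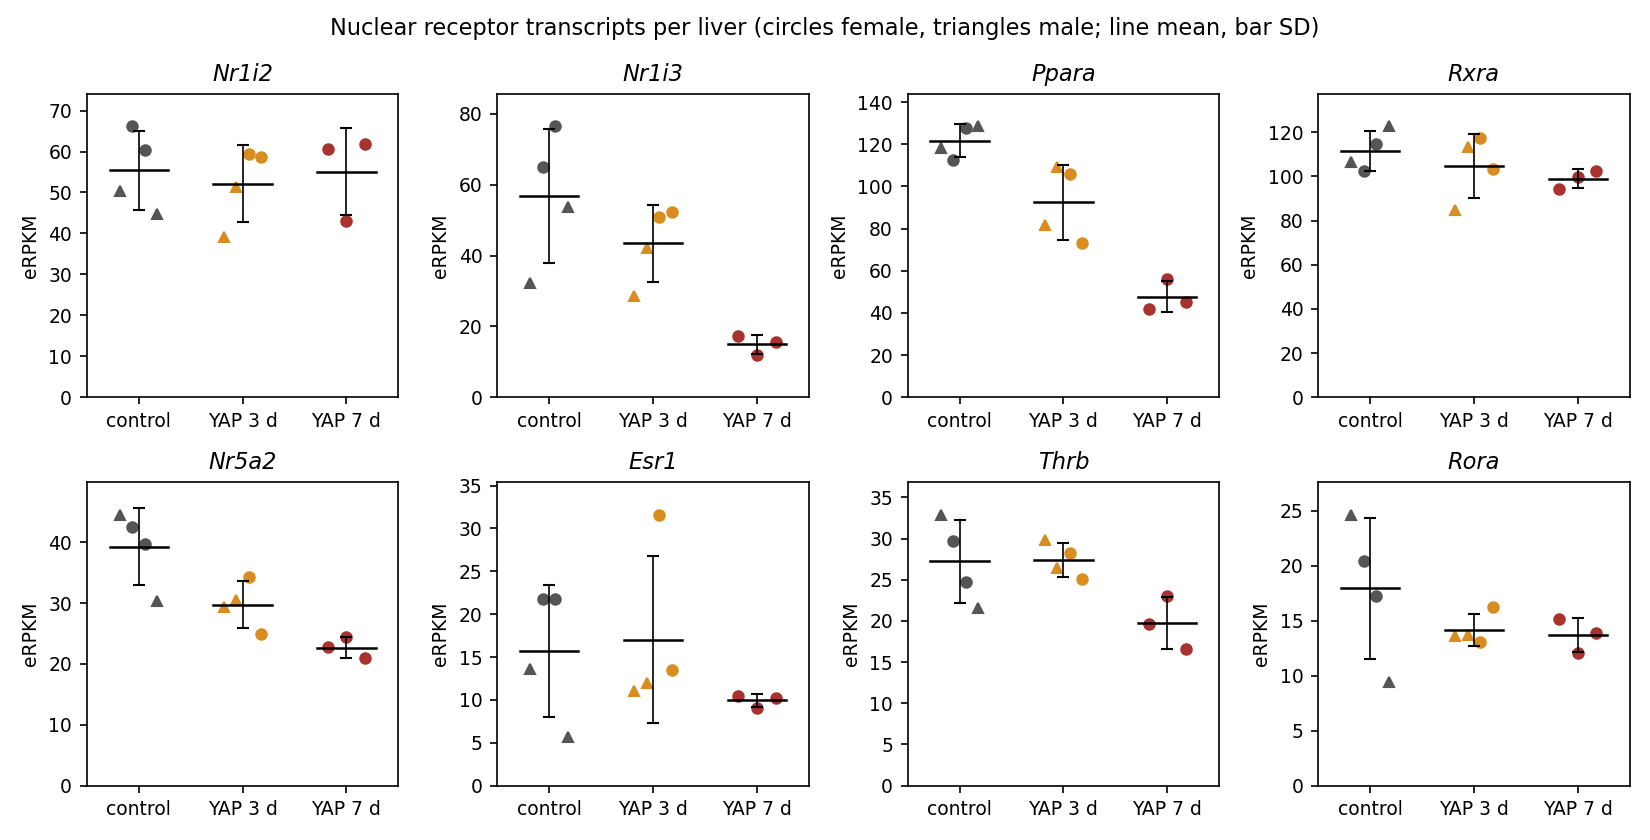
Levels of the 8 receptor transcripts in eRPKM (vertical axes, from 0) in each control liver and in livers after 3 and 7 days of YAP induction. Circles are female and triangles male livers, horizontal lines are means and bars are SD; the 7-day livers of Ppara, Nr1i3 and Nr5a2 all lie below every control, whereas Nr1i2 and Rxra overlap throughout.

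The first question was whether receptor transcripts had moved by 3 days. A gene was called where limma gave a Benjamini-Hochberg adjusted p below 0.01 over the 14244 genes tested and a log2 fold change beyond 0.5 in size. None of the 8 was called at this time. Cyr61, whose groups did not overlap, was not called either, at a log2 fold change of 1.99 (limma adjusted p = 0.0117). An uncalled gene at 3 days can therefore not be taken as unchanged. Few genes of any kind were called (0.0421% of those tested, of which 0% were lower), and 2 receptors had an unadjusted p under 0.05, against 12.1% of all genes. Limma-voom on the reads behind the values also called none of the 8. Ppara had 81.5, 109, 106 and 73.3 eRPKM in 3-day livers 1 to 4, against 118, 112, 128 and 129 in the controls. All 4 induced livers were below all 4 controls, which 2.25% of genes showed in that direction. The log2 fold change of Ppara was -0.41 (SE 0.16), with a limma adjusted p of 0.311 (0.160 to 0.723 over 28 alternative settings).

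Nr5a2 had 29.3, 30.4, 34.3 and 24.8 eRPKM at 3 days and 44.6, 42.5, 39.7 and 30.3 in the controls. These groups overlapped through control liver 4, the shallowest library. The log2 fold change of Nr5a2 was -0.39 (SE 0.15; limma adjusted p = 0.325). For Rxra and Nr1i2 the 95% intervals of the log2 fold change ran from -0.39 to 0.19 and from -0.49 to 0.31. Shifts within these bounds are not excluded. The interval of Nr1i3 was wider, -0.92 to 0.22. Esr1 was the least certain, from -0.72 to 1.02, because 3-day liver 3 had 31.6 eRPKM and the other 3 had 11.1, 12.0 and 13.5.

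At 7 days, 3 of the 8 receptors fell and none rose. Over all genes tested, 5.77% were called lower (822) and 18% higher (2561). With median-ratio scaling 1254 genes were called lower and 1951 higher, and with quantile normalization 1786 and 1867. The 3 receptors that fell were also those whose 7-day livers all lay below all controls, which 13.3% of genes showed. The 3-day and 7-day livers are compared with the same 4 controls. As whole livers were measured, fewer hepatocytes and less RNA per hepatocyte cannot be told apart in any of these values.

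Nr1i3, which encodes the drug sensor CAR, fell most. Its levels at 7 days were 17.1, 11.8 and 15.7 eRPKM, against 32.1, 64.9, 76.6 and 53.7 in the controls. Every induced liver was below the lowest control, and control liver 1, a male, set that lower edge. The mean was 73.8% lower, with a log2 fold change of -1.84 (SE 0.28; limma adjusted p = 0.000308). Among female livers the log2 fold change was -2.22 (adjusted p = 0.000145), and with the 2 deepest controls it was -1.60 (adjusted p = 0.00637). The opposite-strand Tomm40l had 16.3 to 20.4 eRPKM at 7 days and 20.8 to 45.4 in the controls. Its log2 fold change of -0.79 did not pass (adjusted p = 0.0261), and its part in the Nr1i3 value was not tested.

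Ppara, the fatty acid sensor, fell with little spread between livers. It measured 41.8, 56.2 and 45.2 eRPKM at 7 days, against 112 to 129 in the controls. The gap between groups was wide: the highest induced liver had 56.2 eRPKM and the lowest control 112. The mean was 60.8% lower, at a log2 fold change of -1.35 (SE 0.17; limma adjusted p = 7.0e-05). The call held under all 28 alternatives, with log2 fold changes from -1.62 to -1.21. The Ppara counts were high, 1739 to 2593 reads at 7 days and 1248 to 4795 in the controls.

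Nr5a2, which encodes LRH-1, measured 22.8, 24.4 and 21.0 eRPKM at 7 days. Its controls had 44.6, 42.5, 39.7 and 30.3 eRPKM, so the groups did not overlap. The mean was 42.2% lower (log2 fold change -0.76, SE 0.16; limma adjusted p = 0.00301). This call was lost without control liver 1 (adjusted p = 0.0108) and without 7-day liver 1 or 3 (0.0136 and 0.0197), with log2 fold changes of -0.70, -0.77 and -0.71.

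The other 5 receptors were not called. Thrb came closest, with 19.7, 23.0 and 16.6 eRPKM at 7 days and 32.9, 29.7, 24.8 and 21.5 in the controls. The groups overlapped between 7-day liver 2 and control liver 4. The log2 fold change was -0.45 (SE 0.17; limma adjusted p = 0.0580). The call for Thrb depended on scaling: with median-ratio scaling it was -0.71 (adjusted p = 0.00223) and with quantile normalization -0.74 (0.00166), both past the thresholds. The median of all genes stood at a log2 fold change of 0.26 at 7 days, and relative to it Thrb was at -0.71, Nr5a2 at -1.02, Ppara at -1.61 and Nr1i3 at -2.10.

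Rxra, the common partner, measured 94.3, 99.8 and 103 eRPKM at 7 days and 107, 102, 115 and 123 in the controls. Nr1i2, the gene for PXR, measured 60.6, 43.0 and 61.7, against 50.2, 66.2, 60.3 and 44.8. Both pairs of groups overlapped. The 95% interval of the log2 fold change was -0.48 to 0.14 for Rxra and -0.44 to 0.42 for Nr1i2, so neither a loss like that of Ppara nor one like that of Nr1i3 lies inside these intervals. The sign of Rxra depended on scaling, with -0.17 as deposited and 0.27 after quantile normalization, and neither passed.

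Esr1 and Rora were the lowest receptors in control livers. Esr1 measured 10.5, 9.10 and 10.3 eRPKM at 7 days, inside the control values of 13.7, 21.7, 21.7 and 5.62. The 2 female controls had the higher values, and the lowest, control liver 4, rested on 46 reads. Among female livers the log2 fold change was -1.09 (limma adjusted p = 0.0295), against -0.46 (adjusted p = 0.429) over all livers, and neither was called. Rora, which helps to drive the circadian clock, measured 15.1, 12.0 and 13.9 at 7 days. Its controls had 24.6, 20.4, 17.2 and 9.44 eRPKM, the last from 29 reads, and the log2 fold change of -0.31 (SE 0.26) had an adjusted p of 0.380.

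**Figure D2:**
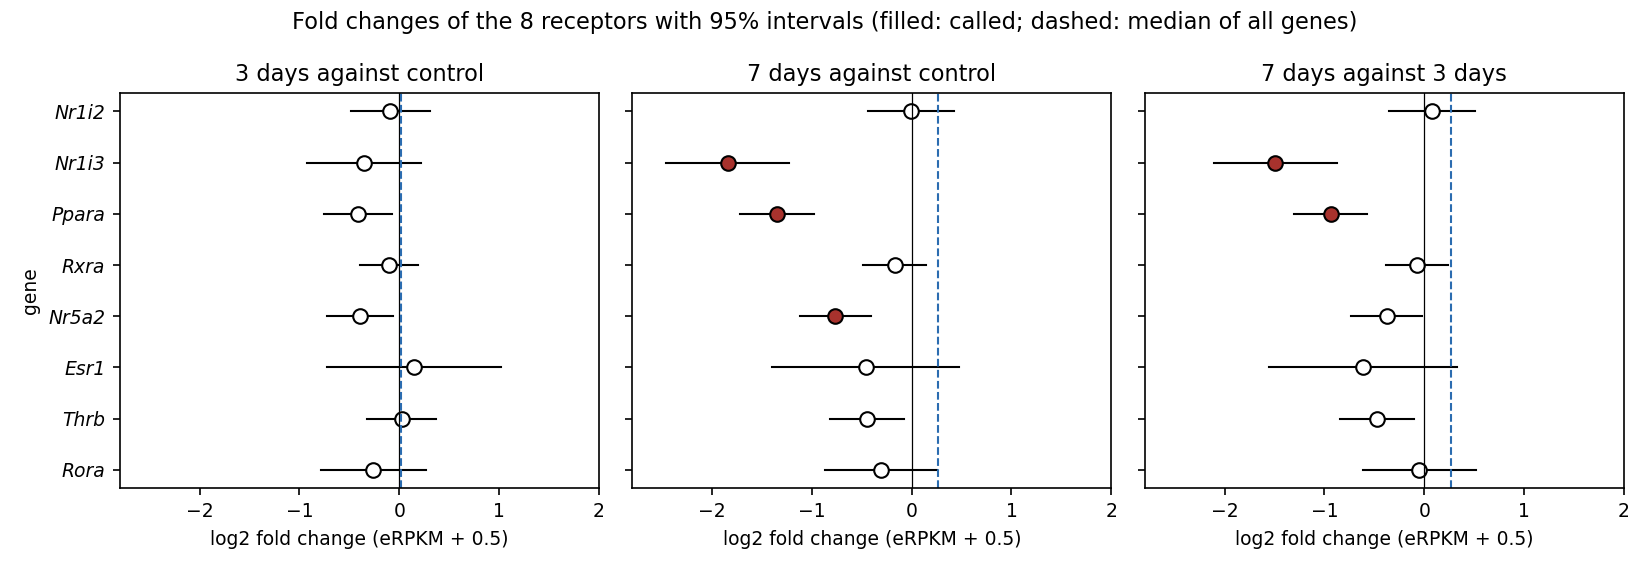
Log2 fold change of eRPKM + 0.5 (horizontal axes) for the 8 receptors in 3 comparisons, with 95% intervals as lines. Filled points passed the thresholds and the dashed line is the median of all genes tested; no point is filled at 3 days, 3 are filled at 7 days against control (Nr1i3, Ppara, Nr5a2) and 2 at 7 against 3 days (Nr1i3, Ppara).

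The step from 3 to 7 days, of doxycycline as well as of YAP, was tested directly. Levels at 7 days were lower without overlap for 5 receptors (Nr1i3, Ppara, Nr5a2, Thrb and Esr1), where 13.8% of all genes showed this. The test called 2 of the 8, with 5.31% of all genes called lower and 14% higher. Nr1i3 dropped from a mean of 43.5 ± 10.9 to 14.9 ± 2.74 eRPKM, a log2 fold change of -1.49 (SE 0.28; limma adjusted p = 0.00177). The Nr1i3 call was lost without 7-day liver 2 (-1.34, adjusted p = 0.0128). Ppara dropped from 92.5 ± 17.7 to 47.7 ± 7.51 eRPKM, a log2 fold change of -0.94 (SE 0.17; adjusted p = 0.00124). The Ppara call was lost among female livers (-0.89, adjusted p = 0.0174) and under quantile normalization (-0.74, adjusted p = 0.0152). Nr5a2 had a smaller step, -0.38 (adjusted p = 0.0927), and passed with median-ratio scaling at -0.62 (adjusted p = 0.00369). The step of Thrb was -0.47 (adjusted p = 0.0489), and it passed with median-ratio scaling at -0.71 (adjusted p = 0.00267) and with quantile normalization at -0.65 (adjusted p = 0.00492).

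Because PPARα, CAR, PXR and TRβ share RXRα as a partner, each was also set against Rxra within the same liver. This cancels a scaling common to both genes, but not a departure from depth of only 1 of them. From control liver 4, the shallowest, to control liver 2, the deepest control, Nr1i2 to Rxra went from 0.365 to 0.647. Thrb to Rxra went from 0.175 to 0.290, Nr1i3 to Rxra from 0.437 to 0.634 and Ppara to Rxra from 1.05 to 1.10. These 2 livers also differ in sex, and the part of depth in the ratios was not tested. The Ppara to Rxra ratio was 1.11, 1.10, 1.11 and 1.05 in the 4 controls. It was 0.961, 0.965, 0.900 and 0.708 at 3 days, and 0.444, 0.563 and 0.440 at 7 days. The 3 groups did not overlap, and Ppara was the more abundant of the pair in all 4 controls and in none of the 7 induced livers. The Nr1i3 to Rxra ratio spanned 0.301 to 0.667 among controls and 0.337 to 0.505 after 3 days, and 0.119 to 0.182 after 7 days, so it separated the 7-day livers from both other groups. The Nr1i2 to Rxra ratio overlapped across all groups, at 0.365 to 0.647. The Thrb to Rxra ratio at 7 days, 0.162 to 0.231, overlapped that of the controls (0.175 to 0.309) and lay just below that of all 3-day livers (0.233 to 0.351). Nr1i3 relative to Nr1i2, the other xenobiotic sensor, was 0.255 to 0.283 in the 7-day livers, below its 3-day (0.732 to 0.893) and control (0.639 to 1.27) ranges.

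**Figure D3:**
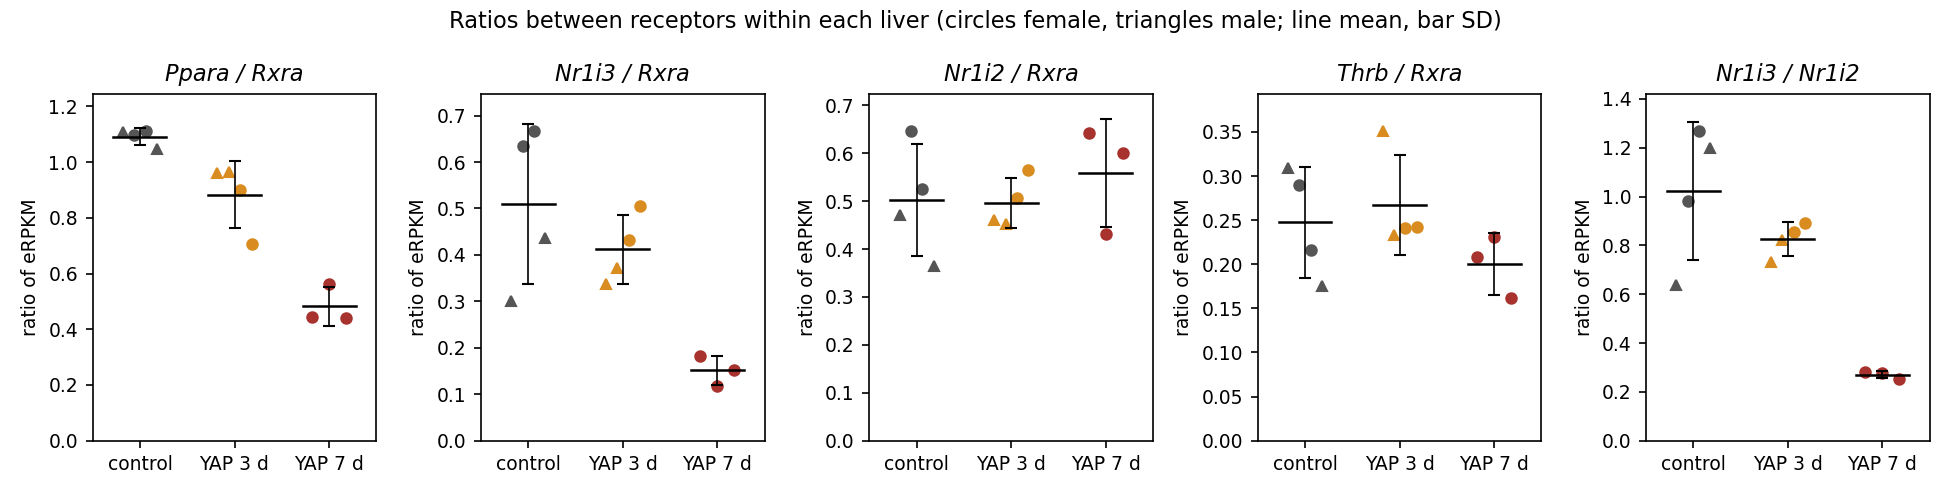
Ratio of eRPKM between receptors within each liver (vertical axes, from 0) for 3 groups of livers. Circles are female and triangles male livers, lines are means and bars SD; Ppara to Rxra is 1.05 to 1.11 in controls and 0.440 to 0.563 at 7 days, whereas Nr1i2 to Rxra overlaps throughout.

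The other receptors and the genes these receptors are known to regulate were examined as lists, where each called change is from the same limma fit over all genes. At 3 days none of the 128 list entries tested was called, with Nr0b2, Nr1d1 and Cyp8b1 counted again where lists share them. Of these entries 17 had an unadjusted p under 0.05, as did 12.1% of all genes. Of 41 other nuclear receptors, 32 were tested, and at 7 days 2 rose, 8 fell and 22 were not called (list median 0.08, all genes 0.26), beside 18% of all genes called higher and 5.77% lower. The falls numbered 2 without 7-day liver 3, 3 without 7-day liver 1 and 4 without control liver 1 or 3, and the rises 4 without 3-day liver 3 or 4 and 1 without control liver 1, 3 or 4 or any 1 of the 7-day livers. Nr4a1, an immediate early orphan receptor, rose to 5.67 to 23.5 eRPKM at 7 days, from a control range of 0.627 to 1.63 (log2 fold change 3.27). Rarb, a retinoic acid receptor, rose from a mean of 5.32 to 12.1 eRPKM, a call that 14 of 28 alternatives kept. Nr0b2, the bile acid responsive repressor SHP, fell by 1.98 on the log2 scale, from a mean of 33.6 to 8.23 eRPKM.

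Nr1d1, the clock repressor Rev-erbα, fell by 1.34, and Nr1h5, a second FXR gene, fell by 1.30 on the log2 scale. The Nr1d1 groups overlapped, with 27.4 eRPKM in 7-day liver 2 and 26.3 in control liver 4. At 3 days Nr1d1 had 15.1 to 19.5 eRPKM, below all controls, and was not called. The Nr0b2, Nr1d1 and Nr1h5 calls were lost among female livers, where the log2 fold changes were -1.63, -1.56 and -1.38. With female livers alone 1 other receptor rose and 3 fell. Hnf4a, the hepatocyte master regulator of the same superfamily, had 135 to 181 eRPKM in controls and 116 to 129 at 7 days and was not called (log2 fold change -0.35, adjusted p = 0.0662). The remaining RXR genes and Thra, the other thyroid hormone receptor gene, were not called either: Rxrb at 0.40, Rxrg at 0.20 and Thra at 0.38 on the log2 scale.

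Among 16 coregulators, which bind receptors and activate or repress transcription, 3 rose, none fell and 13 were not called (list median 0.30, all genes 0.26), where 18% of all genes were called higher. Ncoa7 rose from a mean of 1.58 to 5.29 eRPKM, Nrip1 from 9.60 to 22.1 and Ncoa3 from 14.3 to 31.3. Nrip1 encodes the corepressor RIP140 and Ncoa3 a steroid receptor coactivator. Among female livers, with the 2 deepest controls or without 7-day liver 2 or 3, 1 coregulator rose, and with depth as a covariate none did.

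The PXR and CAR list held 25 genes of drug metabolism and transport. At 7 days 7 fell, 2 rose and 16 were not called, with a list median of -0.29 against 0.26 for all genes. Of all genes tested, 5.77% were called lower and 18% higher. Cyp2c29, a drug-metabolizing cytochrome P450, went from 166 to 492 eRPKM in controls to 11.7 to 54.4 (log2 fold change -3.21). Its control reads were 1283 to 1910 at every depth, so its control level moved with depth. With depth as a covariate Cyp2c29 was at -2.45 and still called. Cyp2c37 went from 104 to 233 eRPKM to 20.4 to 26.9, and Cyp2c55 from 5.41 to 21.9 to 0.984 to 1.19. The genes that rose were Gadd45b, a stress response gene, at 54.4 to 90.9 eRPKM against 0.613 to 5.15 in the controls, and the drug exporter Abcb1a, at a mean of 27.6 against 4.75. The Abcb1a call was kept by 9 of 28 alternatives, and 1 gene of the list rose without control liver 1, 3 or 4, 3-day liver 2 or 4 or any 1 of the 7-day livers. Gadd45b rests on 1 to 37 reads in the controls. For 7 of the 25 genes, control liver 2 had fewer than 2.20 times the reads of control liver 4, against a depth ratio of 4.39. Control liver 2 was female and control liver 4 male, so sex and depth cannot be told apart in this measure. The part of this shortfall in the fold changes was not tested.

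Of 30 PPARα target genes, 11 fell, none rose and 19 were not called, where 5.77% of all genes were called lower. The list median was -0.67, against 0.26 for all genes. Fabp1, the liver fatty acid binding protein, fell from 187 to 632 eRPKM in controls to 60.2 to 79.9. Its control reads were 401 to 522 at every depth, so its control level moved with depth. Ehhadh, of peroxisomal β-oxidation, fell from a mean of 129 to 48.8 eRPKM (log2 fold change -1.36, SE 0.24). Decr2, a peroxisomal dienoyl-CoA reductase, fell from 116 to 45.2 (log2 fold change -1.34, SE 0.15), and all 28 alternatives kept both calls. Several targets that respond strongly to PPARα ligands were not called: Cyp4a10 at -1.43 (adjusted p = 0.304), Cyp4a14 at -3.11 (0.136) and Pdk4 at 0.74 (0.254). With female livers or with the 2 deepest controls 9 of the 30 fell, with depth as a covariate or without 7-day liver 2, 7 fell, and without 7-day liver 3, 6 fell.

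The LRH-1 list of 8 genes had 3 that fell, where 5.77% of all genes were called lower, and a list median of -0.83 (all genes 0.26). Cyp7a1, the rate-limiting enzyme of bile acid synthesis, fell from 62.5 to 179 eRPKM in controls to 10.9 to 15.1 (log2 fold change -3.09, SE 0.30). Abcg8, a sterol transporter, fell from a mean of 49.2 eRPKM to 11.3 to 15.2, and Nr0b2 is given above. Cyp8b1, the sterol 12α-hydroxylase, was at -0.90 and was not called (adjusted p = 0.0947). The thyroid hormone list had 8 genes tested, of which 6 fell and none rose, beside the same 5.77% of all genes called lower. Its list median was -1.28 (all genes 0.26). Dio1, the deiodinase that activates thyroid hormone, fell from 64.0 to 155 eRPKM in controls to 3.73 to 5.39 (log2 fold change -4.57, SE 0.29). Me1, the malic enzyme, fell from a mean of 74.0 to 14.3, and G6pc, the glucose-6-phosphatase, from 146 to 32.6. With the 2 deepest controls or with depth as a covariate 3 of the 8 fell, and among female livers 6 did. Without control liver 3 or any 1 of the 7-day livers, 4 fell.

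The ROR list, which includes clock and sterol genes, had 9 genes tested, with 3 that fell, where 5.77% of all genes were called lower. The list median was 0.09 (all genes 0.26). Elovl3, a fatty acid elongase, had 65.9 and 89.6 eRPKM in the male controls and 10.04 and 9.44 in the female ones, and 0, 0.347 and 0 at 7 days. Cyp7b1, an oxysterol hydroxylase, had 139 and 245 eRPKM in male and 35.4 and 19.2 in female controls, against 3.61 to 6.58 at 7 days. Both genes were far higher in male livers, and among female livers their log2 fold changes were -4.10 and -2.21, both called. Nr1d1 is given above. The count was 1 without control liver 1 or 7-day liver 1 or 3, with depth as a covariate and with the 2 deepest controls. For 5 of the 10 ROR genes the control reads fell short of depth by the measure used for the drug metabolism list. That measure sets a female liver against a male one. Elovl3 had 107 reads in control liver 2 and 217 in control liver 4, and Cyp7b1 435 and 683, so sex and depth cannot be told apart there. Arntl and Nfil3, clock genes, were at 0.84 and 0.98 and were not called (adjusted p = 0.0946 and 0.0362).

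**Figure D4:**
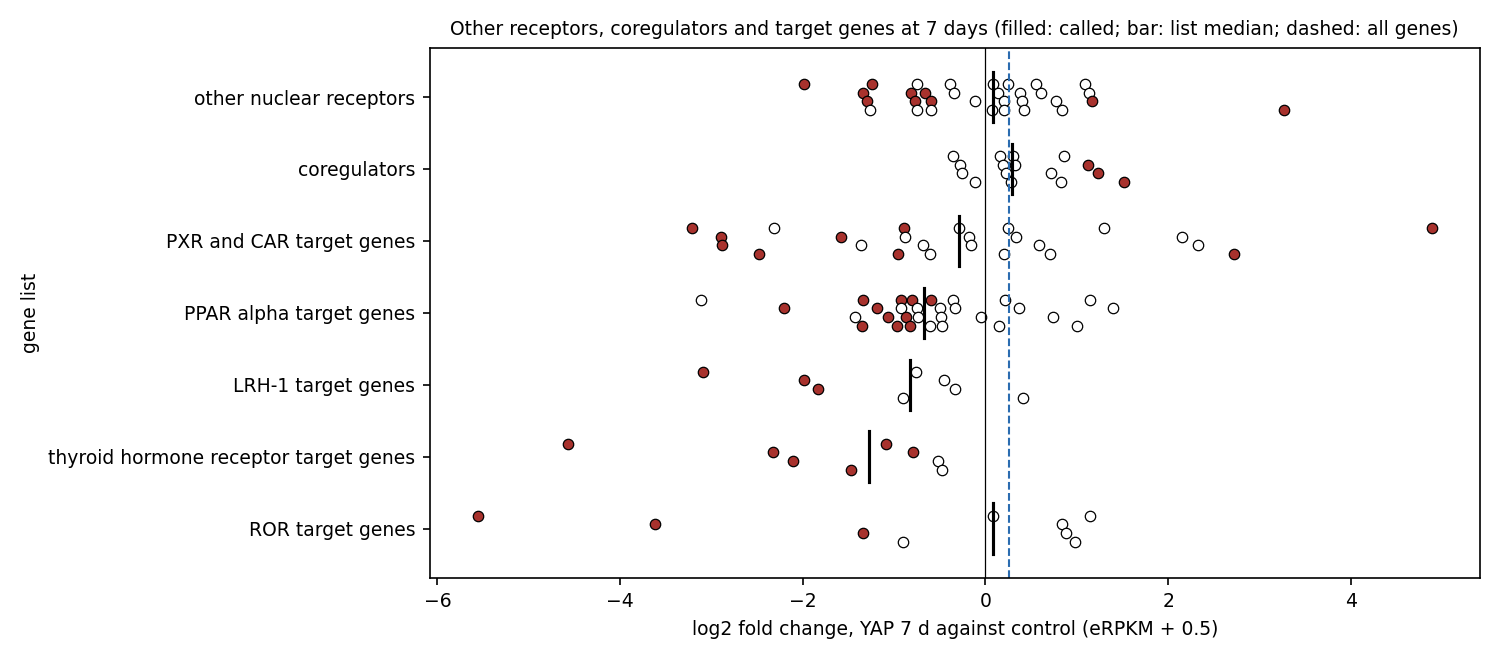
Log2 fold change of eRPKM + 0.5 at 7 days against control (horizontal axis) for every tested gene of 7 lists (vertical axis). Filled points passed the thresholds, short bars are list medians and the dashed line is the median of all genes; the medians run from -1.28 for thyroid hormone receptor targets to 0.30 for coregulators.

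Receptors were also matched with the genes whose centered log2 profile over the 11 livers was nearest, by root mean square difference over 12568 genes. Nr1i3 was nearest to Dpys, Npr2 and F7 (0.293 to 0.317 log2 units), which were at -1.51, -1.85 and -1.70 at 7 days. Ppara was nearest to F5, Gm10768 and Decr2 (0.142 to 0.160), the last also in the PPARα list. Nr5a2 was nearest to Marf1, Kif1b and Psd3 (0.113 to 0.134). For Thrb the nearest were Pias2, Akap11 and Znrf3, and for Nr1i2 Nbas, Agk and Ces2g. Esr1 was nearest to Spry4, Rdh5 and Mapt and Rora to Arl15, Taf5 and Ptprk. Such nearness describes these 11 livers, which share groups, sex and depth.

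Markers of other liver cells were counted in the same way, where 18% of all genes were called higher and 5.77% lower at 7 days. Of 5 macrophage markers 3 rose (Cd68, Csf1r and Cd5l), and their summed level was 194 to 393 eRPKM in controls and 651 to 742 at 7 days. For endothelial cells 2 of 7 rose, with sums of 114 to 204 eRPKM in controls and 191 to 225 at 7 days. Of 7 lymphocyte markers only Ptprc rose, from 4.65 to 9.63 eRPKM in controls to 25.2 to 31.9 at 7 days. The lymphocyte sum, Ptprc included, was 10.7 to 18.9 against 32.4 to 46.3, and the list median 0.02 (all genes 0.26). For cholangiocytes 1 of 6 tested rose (list median 1.02, sum over 7 markers 42.9 to 53.4 against 67.8 to 123). For stellate cells 2 of 7 fell (sum 103 to 127 against 63.5 to 79.8). These counts were small and depended on single livers: no stellate marker fell without any 1 of the 7-day livers, no cholangiocyte marker rose without 7-day liver 1, and 1 endothelial marker rose without control liver 3 or 4 or 7-day liver 1 or 3. Macrophage markers that rose numbered 2 without control liver 1, 2 or 4 or any 1 of the 7-day livers, and 5 without 3-day liver 4. They also numbered 2 among female livers, with median-ratio scaling or with depth as a covariate, and 5 with quantile normalization. Of 6 hepatocyte markers 1 fell, Ttr (4 fell without control liver 2), and the sum was 1165 to 3396 in controls and 962 to 1075 at 7 days. For 5 of these 6 the control reads fell short of depth by the measure used for the drug metabolism list, a female against a male liver. No marker was at 0 in all livers. The part of these cell markers in the receptor changes was not tested.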

How the data were processed

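Total RNA of homogenized livers was sequenced from TruSeq v2 libraries. Per the labels and the study's methods, the authors aligned read pairs to mm9 with TopHat2 2.0.8, without strand, and the submitters' processing notes name featureCounts 1.4.5-p1; the gene annotation is not given in the sources used here. The authors deposited eRPKM, a form of RPKM, scaled per library. The authors' DESeq2 columns (7 days against WT) in the deposited table were not used.

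The 14244 genes that reached 0.5 eRPKM in 3 or more livers were tested with limma 3.58.1 (R 4.3.3, eBayes with trend) on log2(eRPKM + 0.5), 3 groups in one fit, which understates changes of low genes. Genes were called at an adjusted p below 0.01 with a log2 fold change beyond 0.5 in size. The deposited RPKM steps gave whole reads for 100% of 177553 values (within 0.1 read), used for depth and for limma-voom. The limma step was tested on simulated data. Intervals are 95% and symmetric on the log2 scale. Members and lists were chosen with earlier results of these data known. Named list genes were the 3 largest called rises and falls per list with a group mean of at least 1 eRPKM; Cyr61, Yap1, Tomm40l and the uncalled list genes were named after their values were seen. The genes nearest to Rxra are not reported here. Alternatives were pseudocounts, filters, scalings, variance models, sex, label suffix MF, depth, a replicate block and leaving out each liver; the 2 deepest controls were added after seeing the data. Python 3.11.15, pandas 2.3.3 and numpy 2.4.6 were used.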

Additional observations from a re-analysis of the deposited data

Results flagged for a closer look

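Esr1 at 3 days held 1 liver far from the others: 3-day liver 3 had 31.6 eRPKM and the other 3 had 11.1 to 13.5, a gap of 0.882 of the group's range, above Dixon's 95% critical value for 4 samples. This was 1 of 16 groups of 4 livers tested for the 8 receptors, and chance flags about 1 in 20. Without that liver the log2 fold change of Esr1 at 3 days was -0.19 in place of 0.15, and neither was called.

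The effect at 7 days differed from that at 3 days for 2 receptors by the direct test of the step, limma with Benjamini-Hochberg adjustment. Nr1i3 differed by -1.49 on the log2 scale (adjusted p = 0.00177) and Ppara by -0.94 (adjusted p = 0.00124), and in both all 3 livers at 7 days were below all 4 at 3 days. All 7-day livers were female, and among female livers the Nr1i3 step was -1.77 (adjusted p = 0.000514) and the Ppara step -0.89 (adjusted p = 0.0174), which no longer passed.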

How the results depend on the processing

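The 24 receptor fold changes were recomputed 664 times over 28 settings: 620 kept direction and side of the thresholds, 32 changed sign (none of them called) and 12 crossed a threshold. The falls of Nr1i3 and Ppara at 7 days were called in all 28 settings; the count of receptors called at 7 days was 2 to 4. At 7 against 3 days it was 2 (under quantile normalization these were Nr1i3 and Thrb), but 4 with median-ratio scaling, 3 where only an adjusted p below 0.05 was asked (Nr1i3, Ppara and Thrb) and 1 among female livers, and 1 to 2 when each liver was left out (1 without 7-day liver 2); the cause was not tested. At 3 days it was 0 throughout.

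Sign changes at 3 days were Esr1 at -0.068 (female livers), -0.045 (depth as covariate) and -0.15 (2 deepest controls), Nr1i2 at 0.071 (suffix MF), Rxra at 0.025 (female livers) and Thrb at -0.098 (quantile), -0.024 (female), -0.043 (suffix MF), -0.034 (depth), -0.010 (limma-voom) and -0.19 (2 deepest controls). At 7 days they were Nr1i2 at 0.059 (quantile) and 0.098 (suffix MF) and Rxra at 0.27 (quantile). For 7 against 3 days they were Nr1i2 at -0.16 (median-ratio), -0.070 (Xist as covariate), -0.12 (female) and -0.084 (depth) and Rxra at 0.41 (quantile). Leaving out each liver gave -0.26 to 0.36 for Esr1, -0.19 to 0.040 for Nr1i2 and -0.079 to 0.12 for Thrb at 3 days, -0.11 to 0.16 for Nr1i2 at 7 days, and -0.049 to 0.25 for Nr1i2 and -0.12 to 0.038 for Rora at 7 against 3 days.

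Same-numbered livers correlated at -0.22 to 0.27 after removing group means, with 2 of 10 pairs over 0.1. Between controls and 3-day livers, correlations were 0.15 to 0.27 for livers of the same sex and -0.28 to -0.06 for opposite sexes. As these values went with sex, they cannot show whether replicate numbers pair the livers. With a replicate block the receptors called stayed at 0 for 3 days, 3 for 7 days and 2 for the step, with Nr1i3 at -1.79, Ppara at -1.39 and Nr5a2 at -0.86 at 7 days. Of the named list genes, Nr4a1, Cyp2c29, Cyp2c37, Fabp1, Ehhadh, Decr2, Cyp7a1, Abcg8, Dio1 and Me1 were called in all 28 settings, Gadd45b in 27, Nr0b2, Cyp2c55 and G6pc in 26, Ncoa3 and Elovl3 in 25, Ncoa7 in 24, Nr1d1 in 22, Cyp7b1 in 21, Nrip1 in 18, Nr1h5 in 17, Rarb in 14 and Abcb1a in 9. Genes called at 3 days numbered 6 and ranged from 0 to 54 over the settings. The edgeR test planned on recovered reads was not run, since the deposited unit is RPKM. Depth limited Rora (29 reads) and Esr1 (46 reads) in control liver 4.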
